A study of Rattus norvegicus with 6 samples.

Results

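The genes described here are the 9 that mark which transmitter a spinal neuron makes or releases: Gad1, Gad2, Slc32a1, Slc6a5, Slc17a6, Slc17a7, Chat, Slc18a3 and Tac1. They were chosen by gene symbol, and each of the 9 had at least 1 probe set that the array's annotation pairs with that gene alone, 11 probe sets in all, among 14217 genes measured. Spinal cords of newborn Sprague-Dawley rats (postnatal days 1 to 4, as the sample labels give strain and age; the methods name Wistar rats) were dissociated and grown for 8 days in vitro in medium with nerve growth factor. The 3 control cultures grew on glass coated with polyornithine, and the 3 CNT cultures on glass covered with a film of multiwalled carbon nanotubes. The labels call the 3 cultures of a group biological replicates, each gave 1 Affymetrix array, and values are log2 expression. Differences are CNT minus control on this log2 scale, with the standard error (SE) from limma, and a difference of 1 is a 2-fold change. The question was whether the transmitter genes differed between the substrates.

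Most inhibitory neurons of the spinal cord use GABA, glycine or both. Glutamate decarboxylase, encoded by Gad1 and Gad2, makes GABA, the vesicular transporter of Slc32a1 packs GABA and glycine alike, and the membrane transporter of Slc6a5 takes glycine back into glycinergic neurons. Excitatory neurons pack glutamate with the transporter of Slc17a6, which most neurons born in the cord use, or with that of Slc17a7, best known from the cortex and from large sensory afferents. Motor neurons and some interneurons make acetylcholine with Chat and pack it with Slc18a3, and Tac1 encodes the precursor of substance P, a peptide of dorsal horn and sensory neurons.

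Markers of the labelled tissue are given as a description, since signals of different probe sets do not compare as levels. Of 16 measured Hox genes of the trunk, which set position along the cord, 13 lay above the dimmest 30% of genes (a mean under 8.06), whereas all 11 measured forebrain and midbrain genes lay below that level. Of 22 general neuron markers 16 lay above it, as did all 12 microglia and macrophage markers and all 12 fibroblast and meningeal markers. In bulk RNA of such mixed cultures, fewer cells of a type and less RNA per cell cannot be told apart. Of 15 markers of sensory ganglion neurons, a possible source of Tac1 in cord preparations, 12 lay among the dimmest 30%. The nociceptor channel genes Scn10a (7.99), P2rx3 (6.79) and Trpv1 (5.91) were among them. Avil (8.28), Runx1 (11.91) and Ntrk2 (12.24) lay above that level. Tac1 itself, with a mean of 6.91, lay among the dimmest 30% too, and the part of ganglion neurons in its values was not tested. The difference between the beta-actin 3' and 5' probe sets, a sign of RNA quality, was 2.20 in control 1 and CNT 2, 1.72 in CNT 3 and 0.62 to 0.92 in the other cultures.

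No transmitter gene passed limma's test in CNT against control cultures, and the genes of widest spread, Slc17a6, Tac1 and Slc32a1, varied mostly between cultures on the same substrate. All 9 had an adjusted p of 0.999, and 0 of 9 reached an unadjusted p under 0.05, which 3.12% of all genes did (2.41% higher and 0.71% lower in CNT cultures). Of all 14217 genes, 0 (0%) passed an adjusted p of 0.05. Of the 9 differences, 7 were positive and 2 negative, with a median of 0.09 beside 0.03 over all genes, and with quantile normalization 5 were positive. Of the 9, only Gad2 had groups that did not overlap, with higher values in CNT cultures, where 5.94% of all genes did the same and 2.05% did not overlap in the other direction. Only Gad1 and Slc17a6 lay above the dimmest 30% of genes. The deposited values carry no detection calls, so a narrow interval at a low value does not show that the mRNA level was the same on both substrates.

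**Figure D1:**
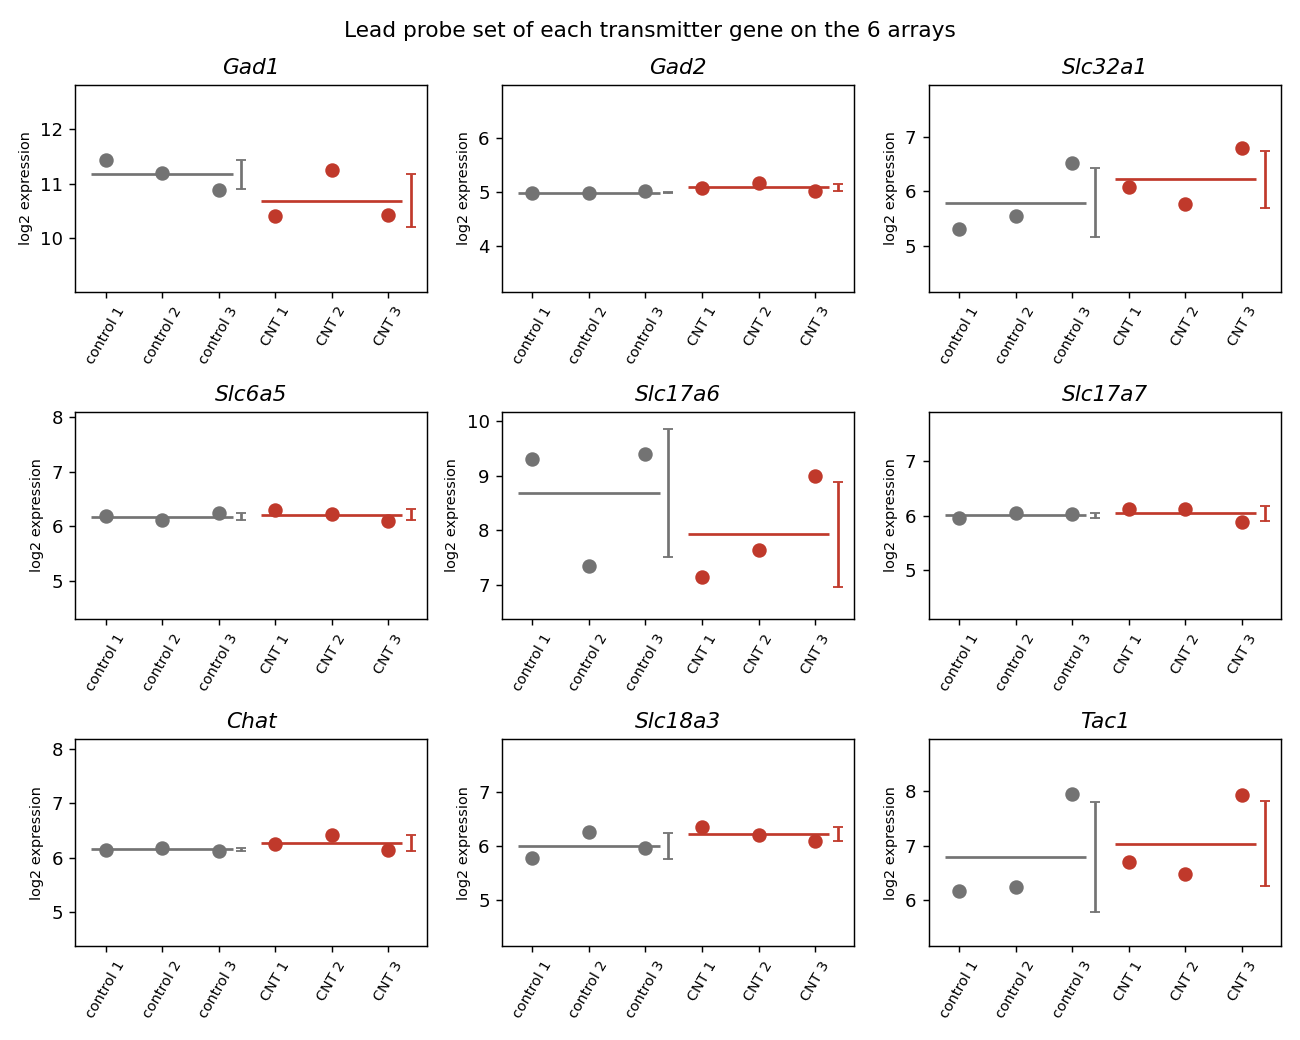
Log2 expression of the lead probe set of each of the 9 transmitter genes on the 6 arrays, with control in grey and CNT in red, on axes of equal height. Each line marks a group's mean and each bar its SD (n = 3). The wide spread of Slc17a6 and Tac1 lies within each substrate.

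The genes with the widest spread between cultures are shown with the sequence upstream of their transcription start, for 2 that varied together (Slc32a1 and Tac1) and for the one that varied most (Slc17a6). The windows hold the 250 bases before the start, from RefSeq on rat build GRCr8, on the plus strand: Slc17a6 at chr1:110348197-110348446, Slc32a1 at chr3:167686995-167687244 and Tac1 at chr4:36645333-36645582. Capitals mark matches to 5 short motifs searched on both strands.
Slc17a6: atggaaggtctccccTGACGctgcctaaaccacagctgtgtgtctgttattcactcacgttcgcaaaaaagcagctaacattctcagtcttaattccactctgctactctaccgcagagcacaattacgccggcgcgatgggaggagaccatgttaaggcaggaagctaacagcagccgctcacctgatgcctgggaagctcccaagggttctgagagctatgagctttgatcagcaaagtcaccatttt
Slc32a1: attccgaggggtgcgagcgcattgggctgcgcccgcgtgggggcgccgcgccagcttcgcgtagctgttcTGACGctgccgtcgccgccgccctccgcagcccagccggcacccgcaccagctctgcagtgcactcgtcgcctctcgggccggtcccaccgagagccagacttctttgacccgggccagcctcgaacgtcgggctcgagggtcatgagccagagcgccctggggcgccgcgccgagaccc
Tac1: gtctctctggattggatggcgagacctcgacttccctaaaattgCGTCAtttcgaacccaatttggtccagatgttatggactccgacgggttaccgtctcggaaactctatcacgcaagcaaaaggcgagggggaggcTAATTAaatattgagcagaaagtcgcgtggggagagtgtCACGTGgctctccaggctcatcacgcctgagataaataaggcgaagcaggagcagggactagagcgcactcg
The capitals in Slc17a6 and Slc32a1 are TGACG, the opening letters of a cyclic AMP response element. Tac1 holds these letters on the other strand (CGTCA), followed by the homeodomain core TAATTA and then CACGTG, an E-box. The letters TGACG were found upstream of 4 of the 9 genes (Slc32a1, Slc17a6, Chat and Tac1) and of 18.2% of all 33469 promoters. TAATTA was found in 2 of the 9 (Slc6a5 and Tac1) and in 4.86% of promoters, and CACGTG in 2 of the 9 (Chat and Tac1) and in 5.59%. TATAAA was found in Gad1 alone and in 12.9% of promoters, and the letters TTCAGCACC, part of the element bound by the neuronal repressor Rest, in none of the 9 and in 0.305%. The Slc32a1 window had a GC content of 73.6%, above 95.5% of promoters, and those of Tac1 (52.4%) and Slc17a6 (50.8%) lay near the median of 51.2%. A match to so few letters is a description of the window and shows no binding.

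Among the inhibitory genes, Gad1, which makes most of the GABA of neurons, had a lower mean in CNT cultures, short of the test. Its log2 expression was 11.43, 11.19 and 10.89 in control cultures 1, 2 and 3 and 10.40, 11.24 and 10.42 in CNT cultures 1, 2 and 3. CNT 1 and CNT 3 lay below every control culture, while CNT 2 lay between control 2 and control 1, so the groups overlapped. The difference was -0.48 ± 0.27 (SE; 95% confidence interval -1.14 to 0.17, limma's adjusted p = 0.999), a fold of 0.716. It was -0.76 without CNT 2 (limma's unadjusted p = 0.0092) and -0.34 without CNT 1 (unadjusted p = 0.309). Without control 1 and CNT 2 together it was -0.63 (limma's unadjusted p = 0.0176). The adjusted p was not passed in any of these cases. Control 1 and CNT 2 were the highest arrays for this probe set and had the largest beta-actin difference (2.20 in both). The part of RNA quality in the Gad1 values was not tested.

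A second Gad1 probe set, which lay among the dimmest 30%, separated the substrates without passing the adjusted p. It read 6.41, 6.89 and 6.91 in control and 6.26, 6.31 and 5.68 in CNT cultures, so that every CNT culture lay below every control culture, as in 2.43% of all 20826 probe sets (7.96% in either direction). The difference was -0.65 ± 0.23 (SE, 95% confidence interval -1.21 to -0.10), with an unadjusted p of 0.0278 and an adjusted p of 0.999 from limma over all probe sets. The exact two-sided permutation test gave p = 0.1, the smallest that 3 against 3 cultures allow. Over the 6 arrays the Gad1 probe sets had a Pearson correlation of 0.517, given as a description. They ranked the control cultures in opposite orders, since control 1 was the highest in one and the lowest in the other. With the mean of both probe sets standing for Gad1, the difference was -0.57 (unadjusted p = 0.0236, adjusted p = 0.999 from limma).

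Gad2, the other decarboxylase gene, was read by a single probe set at the bottom of the range, dimmer than all but 4.47% of genes. Its values were 4.98, 4.98 and 5.01 in control and 5.07, 5.16 and 5.02 in CNT cultures. Every CNT value exceeded every control value, yet control 3 and CNT 3 differed by 0.01, and the groups overlapped with quantile normalization or median centring. Gad2 differed by 0.09 ± 0.09 (SE, 95% confidence interval -0.12 to 0.31), and by 0.06 without CNT 2. Gad1 and Gad2 had a correlation of -0.095 over the 6 arrays.

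Slc32a1, which loads GABA and glycine into vesicles, varied more between cultures than Gad2. It stood at 5.31, 5.55 and 6.52 in control and at 6.08, 5.78 and 6.81 in CNT cultures. The highest values were those of CNT 3 and control 3, and the groups overlapped. Slc32a1 differed by 0.43 ± 0.40 (SE, 95% confidence interval -0.54 to 1.39), by 0.79 without control 3 and by 0.13 without CNT 3. The SD over the 6 arrays, 0.58, was larger than that of 98.1% of the 566 genes whose mean lay within 0.25 of its own. Slc32a1 ran against Gad1 over the arrays, with a correlation of -0.796.

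Slc6a5, the glycine transporter of glycinergic neurons, varied less over the 6 arrays than all but 8.37% of genes. It read 6.18, 6.11 and 6.23 in control and 6.30, 6.22 and 6.10 in CNT cultures, a range of 0.20 in which the highest and the lowest value both came from CNT cultures. The difference, 0.03 ± 0.10 (SE, 95% confidence interval -0.21 to 0.27), turned to -0.01 with quantile normalization.

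Of 10 further genes of GABA and glycine handling, 0 passed in either direction, with a median difference of -0.04. At an unadjusted p under 0.05 the count was also 0 in limma. Slc6a13, a GABA transporter of meninges and other non-neuronal cells, differed by -1.04 ± 0.54 (SE, limma's adjusted p = 0.999). Its values in CNT cultures were 7.70, 6.27 and 8.46, against 8.22, 8.66 and 8.67 in control cultures, with CNT 2 the lowest. CNT 2 was also the lowest array for the 12 fibroblast and meningeal markers, whose mean was 10.4 there and 11.7 to 12.6 in the other cultures. The part of these cells in the Slc6a13 value was not tested. Shmt1, which interconverts serine and glycine, differed by 0.34 ± 0.21 (SE), and Gphn, the scaffold of inhibitory synapses, by -0.07 ± 0.21.

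Among the glutamatergic genes, Slc17a6 differed more between cultures than any other of the 9. Its log2 expression was 9.31, 7.34 and 9.41 in control cultures 1, 2 and 3 and 7.14, 7.64 and 9.00 in CNT cultures 1, 2 and 3. The cultures fell apart into 3 high values (control 1, control 3 and CNT 3) and 3 low ones (control 2, CNT 1 and CNT 2), with both substrates on each side. Between CNT 1 and control 3 the difference was 2.27, or 4.84-fold. The SD of 1.04 over the arrays exceeded that of 99.1% of all genes and of 97.5% of the 712 genes with a like mean.

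Between the substrates Slc17a6 differed by -0.76 ± 0.71 (SE; 95% confidence interval -2.49 to 0.97, limma's adjusted p = 0.999), a fold of 0.591. Single cultures moved this value. Leaving out control 2 gave -1.43, CNT 3 -1.30, CNT 1 -0.36, control 3 -0.40, control 1 -0.45, and control 1 with CNT 2 -0.30. The mean of the 22 general neuron markers, which as a mean of many genes varies less than a single gene does, was 9.18, 9.38 and 9.36 in control and 9.30, 9.28 and 9.26 in CNT cultures. The mean of 11 oligodendrocyte lineage markers was 12.1, 12.1 and 12.0 in control 2, CNT 1 and CNT 2, where Slc17a6 was low, and 11.7, 11.4 and 11.3 in control 1, control 3 and CNT 3, where it was high. The part of this in the Slc17a6 values was not tested.

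**Figure D2:**
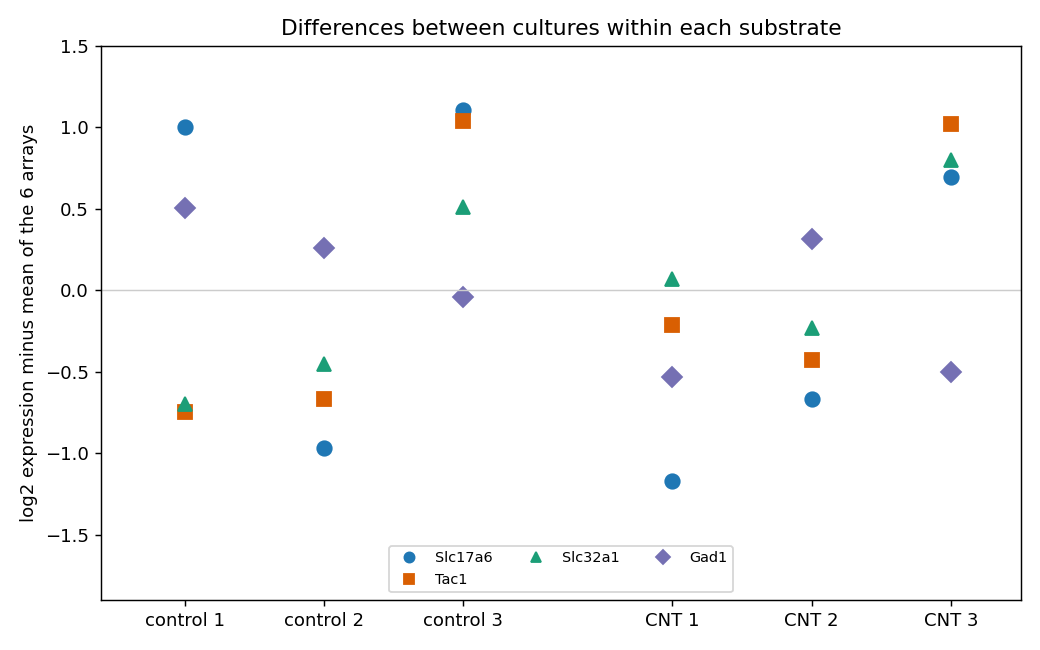
Log2 expression of Slc17a6, Tac1, Slc32a1 and Gad1 on each array minus the gene's mean over the 6 arrays. Slc17a6 spans 2.27, from CNT 1 to control 3, and Tac1 and Slc32a1 are highest in control 3 and CNT 3.

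Slc17a7 lay low on both of its probe sets. The lead probe set read 5.96, 6.04 and 6.02 in control and 6.13, 6.12 and 5.88 in CNT cultures, with CNT cultures at both ends of the range. It differed by 0.04 ± 0.11 (SE, 95% confidence interval -0.23 to 0.30). The second probe set differed by -0.07 ± 0.09 (SE), and their correlation over the 6 arrays was -0.142, so the probe sets showed no common direction.

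Of 13 further genes of glutamate handling, 0 passed, and 0 reached an unadjusted p under 0.05 in limma, with a median of -0.04. Glul, the glutamine synthetase with which astrocytes dispose of glutamate, averaged 13.49 in control and 13.57 in CNT cultures (SD 0.22 and 0.21, n = 3 each). The amino acid transporter genes Slc38a1 and Slc1a4 differed by -0.26 ± 0.25 and -0.12 ± 0.12 (SE).

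The cholinergic pair was dim in every culture. The gene of the vesicular acetylcholine transporter, Slc18a3, lies inside the Chat gene on chromosome 16 of build GRCr8. Chat, which makes acetylcholine, read 6.15, 6.18 and 6.13 in control and 6.25, 6.43 and 6.13 in CNT cultures. CNT 3 lay within the control range and the other CNT cultures above it. Chat differed by 0.12 ± 0.11 (SE, 95% confidence interval -0.15 to 0.38), by 0.04 without CNT 2 and by 0.19 without CNT 3.

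Slc18a3 read 5.78, 6.26 and 5.96 in control and 6.35, 6.20 and 6.10 in CNT cultures. Control 2 lay among the CNT values, and the difference was 0.22 ± 0.15 (SE, 95% confidence interval -0.15 to 0.59). It was 0.10 without control 1 and 0.35 without control 2. Chat and Slc18a3 had a correlation of 0.489 over the arrays. Slc18a3 ran against Slc17a6, with a correlation of -0.898. With 6 arrays and 36 pairs of genes, such values are a description only.

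Of 15 further cholinergic and motor neuron genes, 0 passed the adjusted p, 11 lay among the dimmest 30% and the median difference was 0.03. The choline transporter gene Slc5a7, which supplies Chat with choline, lay among them, with means of 4.78 and 4.79 in control and CNT cultures (SD 0.07 and 0.06, n = 3 each). Prph, an intermediate filament of motor and sensory neurons, was the only one of the 15 with groups that did not overlap. Over all genes 5.94% were likewise higher in CNT cultures without overlap. It read 6.52, 6.56 and 6.63 in control and 6.85, 6.91 and 6.70 in CNT cultures (0.25 ± 0.10, limma's unadjusted p = 0.0445 and adjusted p = 0.999). Mmp9, a protease of fast motor neurons that activated microglia also make, read 6.81, 8.32 and 12.05 in control and 10.63, 11.30 and 12.71 in CNT cultures (2.49 ± 1.35, limma's adjusted p = 0.999). All 12 microglia and macrophage markers were higher on average in CNT cultures (median 0.37). The count was 9 of 12 without control 1 (median 0.10). Without control 1 and CNT 2 together it was 6 of 12 (median 0.02). The part of microglia and macrophages in the Mmp9 value was not tested. Acly, which makes acetyl-CoA in all cells, differed by -0.09 ± 0.19 (SE).

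Tac1 was high in 1 culture of each substrate. It read 6.16, 6.24 and 7.95 in control cultures 1, 2 and 3 and 6.70, 6.48 and 7.93 in CNT cultures 1, 2 and 3. The cultures numbered 3 were high on both substrates and differed from each other by 0.02, while the other cultures lay at or below 6.70. Tac1 differed by 0.25 ± 0.60 between the substrates (SE; 95% confidence interval -1.21 to 1.71, limma's adjusted p = 0.999). The value was 0.83 without control 3, and turned to -0.20 without CNT 3, -0.06 without control 1 and -0.02 without control 2. The SD of 0.82 exceeded that of 96.7% of the 631 genes with a like mean.

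Tac1 and Slc32a1 had the highest correlation of the 36 pairs, 0.958 over the 6 arrays, and in both the arrays of control 3 and CNT 3 were the highest. Slc17a6 was high in these cultures too, and in control 1. Of all genes, 11.5% had their highest values in control 3 and CNT 3, and of the 9 transmitter genes 2 did.

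Other neuropeptide genes showed the same cultures as the highest. Of 20 measured neuropeptide genes of the cord besides Tac1, 10 had their highest values in control 3 and CNT 3, a count made after these values were seen. Of the 20, 15 had a mean under 8.06 and so lay among the dimmest genes. Among the brighter genes Npy and Sst were highest in these cultures, whereas Penk, Gal and Trh were not. Sst, the somatostatin gene of dorsal horn interneurons, read 7.82, 8.05 and 9.06 in control and 7.19, 7.89 and 9.06 in CNT cultures. Pnoc, which encodes nociceptin, read 8.50, 7.42 and 8.63 in control and 6.98, 6.38 and 9.83 in CNT cultures. The others were Npy, Pdyn, Nts, Vip, Adcyap1, Cartpt, Nmu and Calcb.

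**Figure D3:**
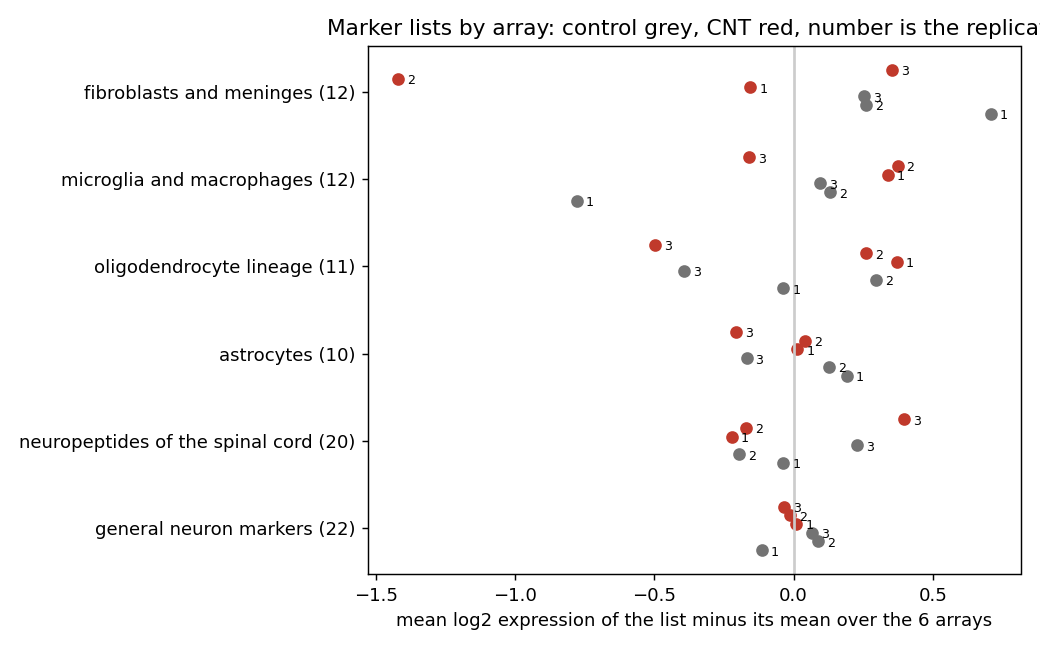
Mean log2 expression of 6 gene lists on each array minus the list's mean over the 6 arrays, with the number of genes in brackets, control in grey and CNT in red. Control 3 and CNT 3 are the highest arrays for the neuropeptides and the lowest for the oligodendrocyte and astrocyte markers.

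Other lists also moved in these cultures. The mean of the neuropeptide list was 7.39 in control 3 and 7.56 in CNT 3, against 6.94 to 7.12 in the others. The means of 10 astrocyte markers (11.3 in both) and of 11 oligodendrocyte lineage markers (11.4 and 11.3) were lowest there, against 11.5 to 11.7 and 11.7 to 12.1 in the others. The mean of the 22 general neuron markers was 9.36 in control 3 and 9.26 in CNT 3, within the range of the other cultures, and 6 of the 22 had their highest values in these cultures, against 11.5% of all genes. The mean of 6 Schwann cell markers was highest there, at 10.92 and 11.15 against 10.67 to 10.88, as was that of the 15 genes of peptide processing and tachykinin receptors, at 8.98 and 9.00 against 8.75 to 8.89. The beta-actin difference, 0.66 in control 3 and 1.72 in CNT 3, lay within the range of the other cultures. The part of any of these in the Tac1 and Slc32a1 values was not tested.

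Between the substrates, 0 of the 20 neuropeptide genes passed, and 0 reached an unadjusted p under 0.05 in limma. Of the 20, 10 had a higher mean in CNT cultures (median difference 0.00), against 15 without control 3 (median 0.17) and 6 without CNT 3 (median -0.11). Penk, the enkephalin precursor gene and the brightest of the list, averaged 11.66 in control and 11.50 in CNT cultures (SD 0.20 and 0.31, n = 3 each). Cck differed by 0.24 ± 0.14 and Nmu by 0.55 ± 0.32 (SE). Of 15 genes of peptide processing and tachykinin receptors, 0 passed. Tacr1, the receptor of substance P, read 8.77, 9.30 and 8.18 in control and 8.54, 8.98 and 8.43 in CNT cultures. Control 3 and CNT 3, the highest cultures for Tac1, were the lowest for Tacr1. Cpe, which trims peptide precursors, was lower in each CNT culture than in any control culture, as were 2.05% of all genes. Cpe differed by -0.17 ± 0.10 (SE), and Pam, which amidates peptides such as substance P, by -0.48 ± 0.21. Neither passed (limma's adjusted p = 0.999 for both).

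**Figure D4:**
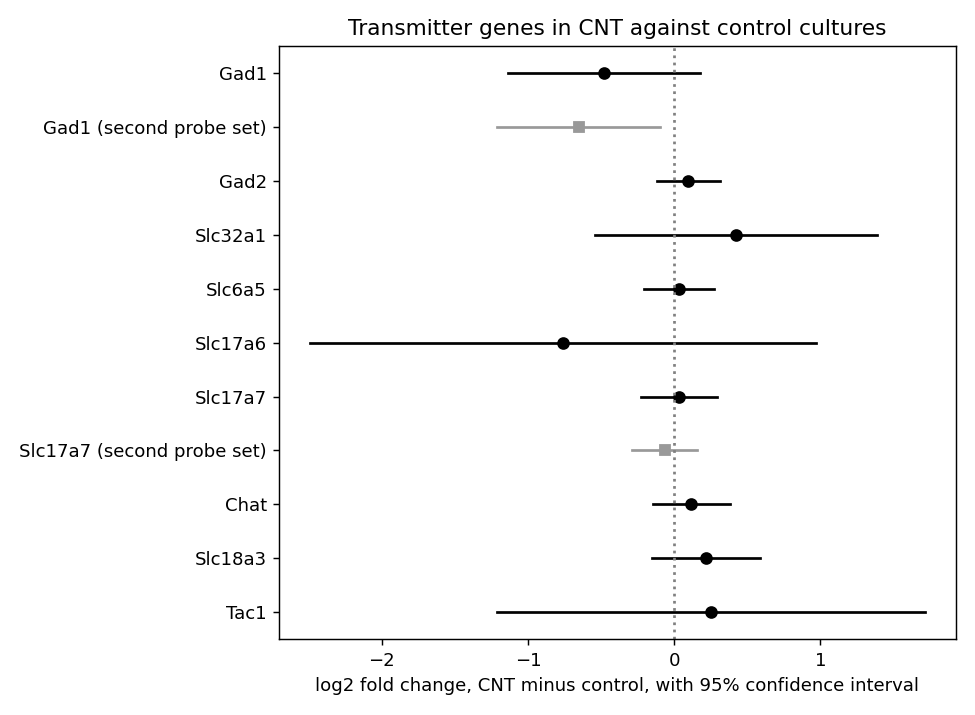
Log2 fold change of CNT against control cultures for the 11 probe sets of the 9 genes, with the 95% confidence interval from limma, lead probe sets in black and second probe sets in grey. Only the interval of the second Gad1 probe set, from -1.21 to -0.10, lies on one side of 0.

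The transcription factors that set transmitter fate did not pass either. Of 28 measured, 0 passed the adjusted p, 1 reached an unadjusted p under 0.05 in each direction, and the groups did not overlap for 4 that were higher and 1 that was lower in CNT cultures (5.94% and 2.05% of all genes). The median difference was 0.03. Sox21, a transcriptional repressor of neural progenitors that favours neuronal differentiation, read 6.76, 6.85 and 6.58 in control and 6.08, 6.48 and 6.25 in CNT cultures (-0.46 ± 0.14, limma's unadjusted p = 0.0165). Gata2, which promotes GABAergic fate in ventral interneurons, read 6.17, 6.30 and 6.20 in control and 6.69, 6.37 and 6.48 in CNT cultures (0.29 ± 0.12, limma's unadjusted p = 0.0486). In both the groups did not overlap, and both lay among the dimmest 30% of genes. Maf, a factor of dorsal horn and other cells, differed by -0.03 ± 0.10 (SE). Of 12 monoamine genes, whose neurons lie mainly outside the cord, 0 passed and 9 lay among the dimmest 30%. Their brightest gene was Maob, a glial enzyme that breaks down amines (-0.18 ± 0.21, SE). Maoa differed by -0.31 ± 0.13 (SE, limma's unadjusted p = 0.0498), with groups that overlapped. Slc6a2, the noradrenaline transporter gene, differed by 0.15 ± 0.09 (SE). Its groups did not overlap, with higher values in CNT cultures, as in 5.94% of all genes. Of the 22 general neuron markers, 0 passed, with a median of -0.02. Gap43, a growth cone protein gene, differed by 0.24 ± 0.15, Uchl1 by -0.51 ± 0.32 and Eno2, the neuronal enolase gene, by 0.10 ± 0.22 (SE).

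Each transmitter gene was set beside 3395 brighter genes (a mean above the median gene and an SD of at least 0.2) to find those with the most similar values over the 6 arrays. For Slc17a6 these were Prkar2b, Snx14 and Hes6 (correlations 0.990, 0.990 and 0.979), and for Tac1 Rpa2, Optn and Orc6 (0.992, 0.992 and 0.988). For Slc32a1 they were Hilpda, Ifrd1 and Ppp1r15a (0.989, 0.987 and 0.985). Prkar2b, a regulatory subunit of protein kinase A, was high and low in the same cultures as Slc17a6, at 10.75, 9.91 and 10.75 in control and 9.92, 10.12 and 10.73 in CNT cultures. For Gad1 the most similar were Fgfr3, Trps1 and Rtel1 (0.937, 0.925 and 0.919), of which Fgfr3 is a receptor gene of astrocytes. The genes most similar to Gad2 were Exo5, Inpp5b and Tgfb1, to Slc6a5 Ret, Bmp2 and Vldlr, to Slc17a7 Por, Slc27a1 and Ddx41, to Chat Fam110a, Lyl1 and Wdr81, and to Slc18a3 Znrd2, Gosr1 and Pde3b. Their correlations ran from 0.858 to 0.995. With only 6 arrays, high correlations can be found among many genes. Of the 3395, 38 had one above 0.95 with Tac1, 18 with Slc32a1 and 16 with Slc17a6, but 0 with Gad1 or Slc6a5.

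**Figure D5:**
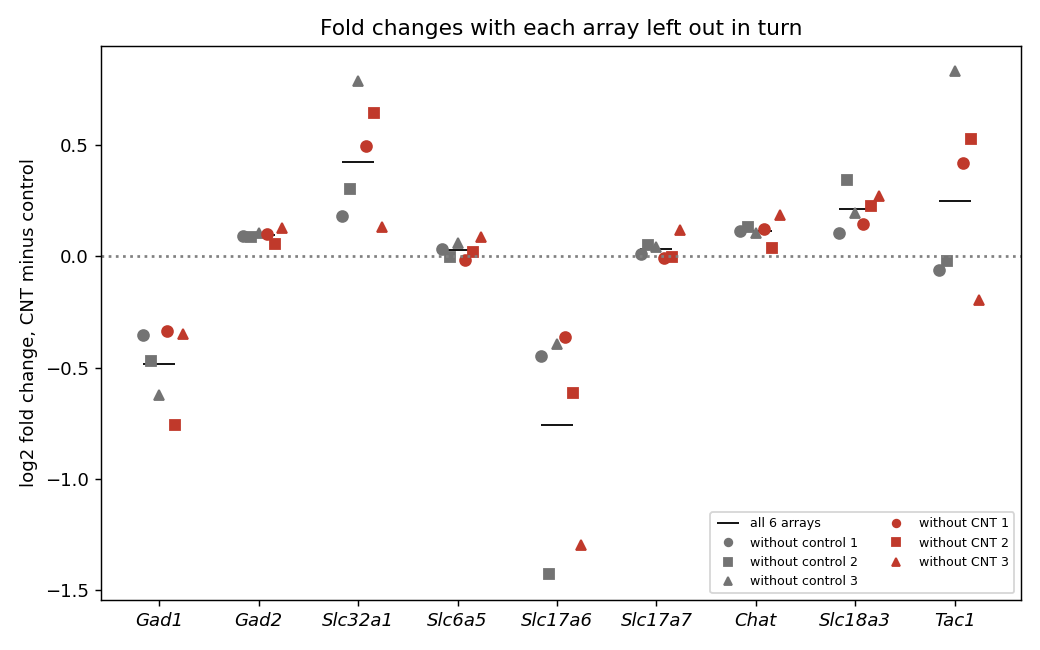
Log2 fold change of CNT against control cultures for each of the 9 genes with all 6 arrays (black line) and with each array left out in turn, grey for control and red for CNT cultures. Slc17a6 ranges from -1.43 to -0.36 and Tac1 from -0.20 to 0.83, and Slc6a5 and Slc17a7 also lie on both sides of 0.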

How the data were processed

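RNA of 3 control and 3 CNT cultures, grouped by the sample titles, was measured on 1 Affymetrix rat genome array each, from 100 ng of total RNA. The deposited values are log2 expression, which the authors made with RMA (background correction, quantile normalization and a summary per probe set). The RMA version is not given in the sources used here. RMA draws low values together, and the methods name custom EntrezGene files, whereas the deposited rows are the manufacturer's probe sets.

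Control probe sets (57) and those paired with several genes (436) or none (9780) were left out, which left 20826 probe sets of 14217 genes. Each gene was led by its probe set of highest mean. Groups were compared with lmFit and eBayes (limma 3.58.1, R 4.3.3), and p-values were adjusted by the method of Benjamini and Hochberg across the 14217 genes (threshold 0.05). The script was tested on simulated data. The rank product of the study's methods was not run. Arrays carry no depth, and their number limits the precision.

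The 9 genes and all lists were chosen with earlier results of these data known, and the motifs after the promoters had been seen. Genes named from a list are its 2 of smallest unadjusted p and its brightest, with Slc5a7 and Tacr1 as partners of a transmitter gene, and for each transmitter gene the 3 most similar over the arrays. Other names (Sst, Pnoc and further neuropeptides, and single markers) were chosen after their values were seen. Of the partners, Slc17a8 had no single-gene probe set and was not analysed here. The labels name TRIzol and the RNeasy Mini kit for the RNA, the methods another kit. The alternatives were a trended robust eBayes, a replicate block, other summaries of probe sets, a filter on dim genes, quantile normalization, median centring and leaving out arrays.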

Additional observations from a re-analysis of the deposited data

How the results depend on the processing

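Under the alternatives tried, 0 of the 9 genes passed an adjusted p of 0.05. The counts over all genes were 0 higher and 0 lower, with the exception of 2 higher without control 3 (range 0 to 2 when each array was left out). Gad1, Gad2, Slc32a1, Slc17a6, Chat and Slc18a3 kept their sign in every setting in which they were fitted; with the dimmest 30% of genes left out only Gad1 and Slc17a6 could be fitted. Slc17a7 turned to -0.0151 with the mean of its probe sets, -0.0103 with quantile normalization and -0.0285 without control 1 and CNT 2 together, and ranged from -0.0077 to 0.1175 when each array was left out. Slc6a5 turned to -0.0119 with quantile normalization and ranged from -0.0152 to 0.0858, and Tac1 ranged from -0.20 to 0.83, when each array was left out. Slc17a7, Slc6a5 and Tac1 lay among the dimmest 30% of genes, where signal over background limits the measurement. So did Gad2, Slc32a1, Chat and Slc18a3, which kept their sign. The cause of the sign changes was not tested.

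The number of the 9 genes whose groups did not overlap, 1 with all arrays, was 2 with the mean of probe sets, 2 of 11 with every probe set by itself, 0 without the dimmest genes, 0 with quantile normalization and 0 with median centring. It was 2 without control 1 and CNT 2 together and ranged from 1 to 3 when each array was left out. With fewer arrays groups overlap less often by construction, and 12.3% to 25.1% of all genes then did not overlap.

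The deviations of same-numbered cultures from their group means had correlations of -0.127 (number 1), 0.361 (number 2) and 0.513 (number 3). The methods name 3 culture series for each condition, and do not say whether cultures of equal number shared a series. With 3 cultures a group, these correlations cannot decide it. Since not every number exceeded 0.1, the main fit was run without pairing, and a replicate block was an alternative. Control 2 correlated more with CNT 1 (0.683) than with CNT 2. A replicate block leaves each fold change as it is and changes its error. With it the SE of Slc32a1 (0.43) went from 0.40 to 0.15 and its unadjusted p from 0.323 to 0.0418 in limma, the only one of the 9 under 0.05 there (adjusted p = 0.973), and the SE of Tac1 (0.25) went from 0.60 to 0.14 (unadjusted p = 0.148). The difference in Gad1 (-0.48) had an adjusted p of 0.973. The count of calls was 0 with the block too. In that fit 498 genes were higher and 179 lower at an unadjusted p under 0.05, against 342 and 101 without it.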

Other observations

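Of the 16 Hox genes, measured to check the spinal origin of the cultures, 13 had a lower mean in CNT cultures, and the median difference was -0.27 beside 0.03 over all genes. In 4 (Hoxa5, Hoxa9, Hoxc4 and Hoxc5) every CNT culture lay below every control culture, as in 2.05% of all genes, and 0 passed limma's adjusted p. Hoxa5 averaged 11.86 in control and 11.42 in CNT cultures (SD 0.16 and 0.19, n = 3 each), a difference of -0.44 ± 0.14 (SE, limma's adjusted p = 0.999). The median was -0.25 with quantile normalization or median centring, -0.15 without control 1, -0.17 without CNT 2 and -0.18 without CNT 3. The mean of the list was 9.24 to 9.47 in control and 9.12 to 9.14 in CNT cultures. The 12 fibroblast and meningeal markers also had lower means in CNT cultures, all 12 of them, with a median difference of -0.70. Without CNT 2 the median was -0.19, and 2 of the 12 had a higher mean in CNT cultures. Without control 1 and CNT 2 together the median was -0.12, and 4 of the 12 were higher. The part of fibroblasts and meningeal cells in the Hox values was not tested.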
